A study of Macaca mulatta with 12 samples.

Results

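GABA-A receptor subunits were described in single layers of the lateral geniculate nucleus (LGN), the part of the thalamus that passes retinal input on to the visual cortex, in monocularly deprived rhesus macaques. The members were all non-control probe sets of the array whose gene symbol was exactly GABRA2, GABRA3, GABRA4, GABRA5, GABRB1, GABRB2 or GABRD, which gave 10 probe sets of 7 genes among 22215 non-control probe sets. Total RNA of each of the 6 layers was hybridised once from the ipsilateral and once from the contralateral LGN, for 12 arrays. Per the labels, the deprived samples were layers 2, 3 and 5 ipsilaterally and layers 1, 4 and 6 contralaterally, and the non-deprived samples were the same layers of the opposite hemisphere. Layers 1 and 2 were taken as magnocellular (4 arrays) and layers 3 to 6 as parvocellular (8 arrays). All arrays, the non-deprived included, came from monocularly deprived monkeys, so no array represents an animal with normal vision. The age and number of the animals, the method and length of deprivation and which samples came from the same animal are not stated in the labels. The p-values therefore measure the spread between these arrays, which may be partly technical, and overstate the evidence about animals if 1 animal gave several samples.

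GABA-A receptors are chloride channels built of 5 subunits, usually alpha and beta subunits with a gamma or delta subunit, and they open when GABA binds between an alpha and a beta subunit. In thalamic relay neurons, receptors with the alpha4 and delta subunits lie outside synapses and carry a sustained inhibition, while receptors with a gamma subunit respond to GABA released at synapses. In the LGN that GABA comes from local interneurons and from the neighbouring reticular and perigeniculate cells. The alpha3 subunit is best known in the thalamus from the reticular nucleus.

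The array carried human probes, on which macaque RNA can bind less well, so each probe set was compared with itself across arrays, and no subunit's intensity was set against another's. A floor was set at the 20th percentile of the whole table, an intensity of 110.8, and a probe set was tested in the main fit where its mean log2 intensity reached the median over all probe sets, equal to an intensity of 483.4. Of the 10 member probe sets, 6 lay above this filter: both of GABRA2, those of GABRA4, GABRB1 and GABRB2, and 1 of the 3 of GABRA5. The other 4, of GABRA3, GABRD and 2 of GABRA5, lay below it, with means 2.14 to 2.9 times the floor. They are called near the floor here because they lay below the filter. GABRD was at or below the floor on 4 of 12 arrays, GABRA3 and the GABRA5 _x_at probe set on 1 each, and the GABRA5 _s_at probe set on 0. Their fits were made over all 22215 non-control probe sets. Values at or below the floor have no order among themselves.

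The arrays themselves differed. Their median intensity ranged from 411.5 to 666.5, highest in the deprived layer 2, which also had the lowest mean correlation with the other arrays (0.889, against 0.92 to 0.947). For GAPDH, the ratio of 3' to 5' probe signal, a sign of RNA quality, was 9.38 on that array, 11 on the deprived layer 5 and 2.21 to 5.65 on the other 10. The same ratio for ACTB was 29.8 to 62.9 in magnocellular and 17 to 43.9 in parvocellular arrays. For both genes the 3' signal exceeded the 5' signal on every array, and the source of this excess was not tested. Of the thalamic relay neuron markers, TCF7L2 (59388.1 to 79018.9) and the vesicular glutamate transporter SLC17A6 (24556.3 to 42637.8) were high on every array. CACNA1G, RORA and LEF1 had lowest values of 2015.2, 1313.3 and 1229.6, and KCNC1 one of 119.5, close to the floor. The remaining 2 of 8 relay markers, PRKCD and GBX2, lay below the filter. The summed level of 4 measured markers of cortex or hippocampus was 7712 on the deprived layer 3 and 1490 to 3730 on the other 11 arrays. Leaving out that array gave deprivation estimates of -1.14 for GABRD and -0.28 for GABRA4 and a cell class estimate of -0.45 for GABRB1, against -1.19, -0.34 and -0.47 with it. GAD1 and GAD2, which make GABA, were also present on every array (18272.9 to 54373.8 and 4048.1 to 10412.9). In these bulk samples, fewer cells of a type and less RNA per cell cannot be told apart.

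**Figure D1:**
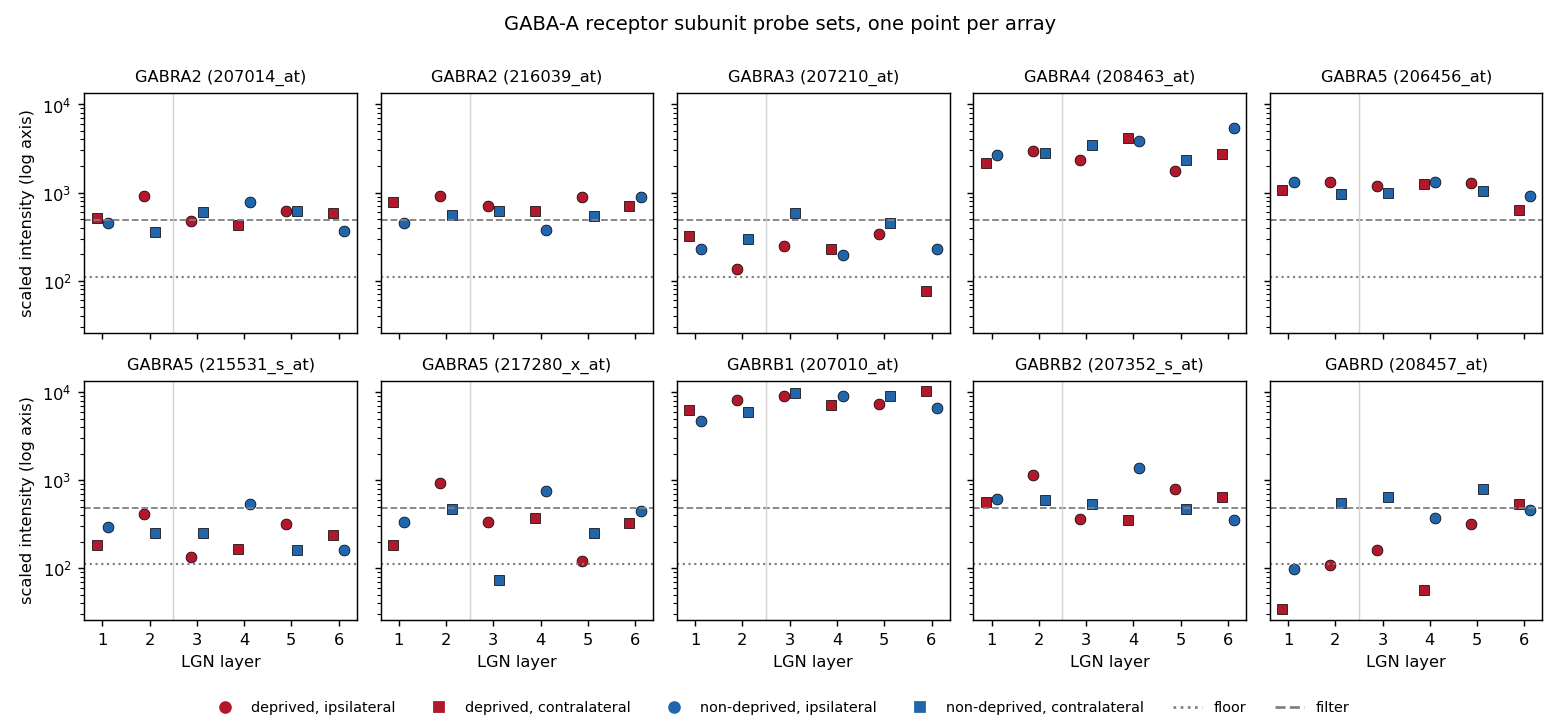
Scaled intensity (log axis) of the 10 member probe sets by LGN layer, 1 point per array, with colour for deprivation and shape for hemisphere; the dotted line is the floor (110.8), the dashed line the filter (483.4), and the vertical line separates magnocellular layers 1 and 2 from parvocellular layers 3 to 6. GABRB1 and GABRA4 lie well above both lines on every array, while GABRD is at or below the floor on 4 of 12 arrays.

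No subunit probe set passed the test for deprivation. Among the 6 above the filter, 0 had an adjusted p under 0.05 (limma, Benjamini-Hochberg over 11105 probe sets), where 0.063% of all probe sets tested were called, and 0 had an unadjusted p under 0.05, where 12% of all did. Among the 4 below the filter, 0 passed (background 0.0045%) and 1, GABRD, had an unadjusted p under 0.05 (background 8.75%). The median log2 difference, deprived minus non-deprived, was 0.07 over the 6 probe sets above the filter and 0.03 over all probe sets tested. The deprived and non-deprived arrays overlapped in all 10 probe sets, where 0.45% of all non-control probe sets had groups that did not overlap. The summed level of 8 astrocyte markers was 75770 to 120800 in deprived and 49790 to 87810 in non-deprived arrays, and that of 8 oligodendrocyte markers 71160 to 153300 and 65790 to 111800. None of these markers above the filter, 7 and 8, passed (limma), and all 15 had positive estimates. So did 3 of 3 microglia markers (summed level 6708 to 13370 deprived and 5300 to 7574 non-deprived) and 5 of 5 markers of endothelium and mural cells. Among neuronal lists, the estimates were positive for 5 of 6 genes listed for interneurons and reticular cells and 4 of 5 for koniocellular neurons. They were positive for 3 of 4 markers of cortex or hippocampus and 2 of 6 of relay neurons. In each of these lists 0 passed, and 53.7% of all probe sets tested were positive. The part of these cell types in the values below was not tested.

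GABRD encodes the delta subunit, which replaces gamma in extrasynaptic receptors, and had the largest fitted difference of the 10. In layer 2 it was at 107.8 deprived and 542.3 non-deprived, and in layer 3 at 160 and 640. In layer 4 it was at 57.1 and 369.9, and in layer 5 at 319.2 and 795.4. In layer 1 both samples were at or below the floor (33.9 and 97.4), and in layer 6 the deprived sample was slightly higher (530.5 against 462.2). Thus the deprived sample was the lower one in the 4 layers from 2 to 5, by 4-fold in layer 3 and 2.49-fold in layer 5, and by at least 4.89-fold and at least 3.34-fold in layers 2 and 4, where it was at the floor. The mean was 201.4 ± 190.5 in deprived and 484.5 ± 239.9 in non-deprived arrays (SD, n = 6 each), and 3 deprived arrays and 1 non-deprived array were at or below the floor. On the contralateral side the deprived arrays were at 33.9, 57.1 and 530.5, and the non-deprived ones, which are different layers, at 542.3, 640 and 795.4. Of these, 33.9 and 57.1 were below the floor, and 530.5 and 542.3 were close. The share of all probe sets with such an order within 1 hemisphere was not counted, so no conclusion is drawn from it. On the ipsilateral side the groups overlapped.

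The fitted log2 difference of GABRD was -1.19 ± 0.44 (SE), a 2.28-fold lower level on the floored scale, with a 95% interval from -2.17 to -0.21. The unadjusted p was 0.0222 and the adjusted p over 22215 probe sets was 0.486 (limma), so the difference did not pass. Among those probe sets 18 had a lower value, and the spread of GABRD over the 12 arrays (log2 SD 1.13) was greater than that of 98.9% of the probe sets below the filter. The estimate was -0.86 without the deprived layer 4, where GABRD was at the floor, and -1.43 without the non-deprived layer 1. With the floor at the 10th percentile it was -1.51, and leaving out the deprived layers 2 and 5, with their high GAPDH ratios, gave -1.58. It was -1.21 in parvocellular layers alone and -1.15 in magnocellular layers alone. The magnocellular estimate rests on layer 2 (-2.29), since both layer 1 samples were at the floor and differed by 0. With no floor the estimate was -1.61, which counts values below the floor that have no order among themselves.

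GABRA4, the alpha4 subunit that partners delta in thalamic relay neurons, was well above the floor, with a lowest value of 1747.3. Deprived and non-deprived values were 2162 and 2636.6 in layer 1, 2994.7 and 2788.8 in layer 2, and 2324.7 and 3479.6 in layer 3. They were 4112.7 and 3893 in layer 4, 1747.3 and 2313.4 in layer 5, and 2772.5 and 5380.2 in layer 6. The deprived sample was lower in 4 of 6 layers, and the non-deprived layer 6 was the highest array. The mean was 2686 ± 827.6 in deprived and 3415 ± 1123 in non-deprived arrays (SD, n = 6 each), and the log2 difference was -0.34 ± 0.23 with an adjusted p of 0.599 (limma). It was -0.19 without the deprived layer 5, -0.25 when the deprived layers 2 and 5 were both left out and -0.09 in magnocellular layers alone. GABRA4 and GABRD, whose products can join in 1 receptor, both had negative estimates, and neither passed. Their Pearson r over the arrays was 0.118. In layers 2 and 4, where GABRD was lower in the deprived sample, GABRA4 was higher in it. Estimates were positive for 53.7% of all probe sets tested and 60.5% of all non-control ones.

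GABRA2 encodes the alpha2 subunit of synaptic receptors, and its 2 probe sets did not vary together over the 12 arrays (Pearson r = -0.02, given as a description). On the brighter of them, deprived and non-deprived values were 789.6 and 453.1 in layer 1, 904.4 and 551.2 in layer 2, and 702.7 and 608.9 in layer 3. They were 621.5 and 371.3 in layer 4, 883.7 and 535.3 in layer 5, and 711.8 and 897.6 in layer 6. The deprived sample was the higher one in 5 of 6 layers, and layer 6 went the other way. The mean was 769 ± 110.8 in deprived and 569.6 ± 180.9 in non-deprived arrays (SD, n = 6 each), a log2 difference of 0.48 ± 0.24 (unadjusted p = 0.0673, adjusted p = 0.459, limma). It was 0.34 after median centring and 0.36 with quantile normalization. The dimmer probe set was at 422.4 to 918.1 (median 547.6) in deprived and 353.4 to 777.7 (median 525.2) in non-deprived arrays. Its deprived sample was the higher one in 3 of 6 layers. Its log2 difference was 0.16 ± 0.28 (adjusted p = 0.864, limma), and it was -0.02 without the deprived layer 2 (918.1). Over the mean of both probe sets the GABRA2 difference was 0.32.

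The remaining subunits had differences close to 0 or wide intervals. GABRB1, the beta1 subunit, was at 6201.6 to 10147.1 (median 7684) in deprived and 4667.3 to 9817.3 (median 7803) in non-deprived arrays, with a log2 difference of 0.12 and a 95% interval from -0.23 to 0.46. GABRB2, the beta2 subunit, was at 353 to 1137.5 (median 600.8) and 356.5 to 1361.2 (median 569.3), a difference of -0.02 with an interval from -0.72 to 0.68. Of GABRA5, which encodes the alpha5 subunit best known from the hippocampus, the probe set above the filter was at 630.3 to 1319 (median 1232) and 910.3 to 1333.6 (median 1013), a difference of 0.02 with an interval from -0.39 to 0.43. These intervals include differences in either direction, and the 3 adjusted p ran from 0.831 to 0.986 (limma). After median centring the estimates of GABRB1 and of this GABRA5 probe set were -0.02 and -0.12, so their signs depend on the scaling. The median over all probe sets tested also went from 0.03 to -0.11 with that centring, a shift shared by all estimates.

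Near the floor, GABRA3, the alpha3 subunit, was at 75.5 to 340.9 (median 235.8) in deprived and 194.5 to 584.6 (median 261.4) in non-deprived arrays. Its deprived sample was the lower one in layers 2, 3, 5 and 6, and its log2 difference was -0.52 ± 0.37 (adjusted p = 0.741, limma); without the deprived layer 6, the only array at the floor, it was -0.235. The other GABRA5 probe sets had differences of -0.16 ± 0.35 (the _s_at probe set) and -0.13 ± 0.53 (the _x_at probe set), both with adjusted p above 0.9 (0.917 and 0.973, limma). All 4 probe sets below the filter had negative estimates, where 60.5% of all non-control probe sets were positive. In sign this holds for GABRD and GABRA3 under every alternative that was run, and not for the GABRA5 probe sets.

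**Figure D2:**
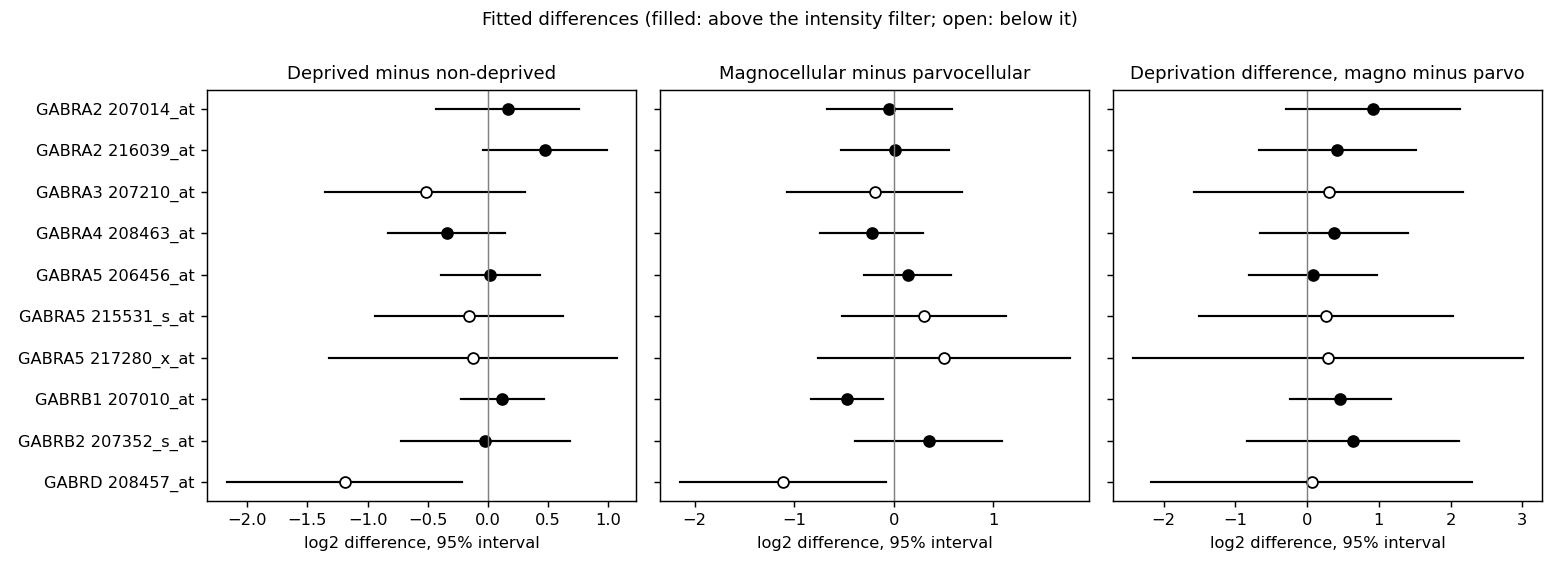
Fitted log2 differences with 95% intervals for deprivation, cell class and their interaction; filled points lie above the intensity filter and open points below it. The intervals of GABRD (deprivation and cell class) and GABRB1 (cell class) do not include 0 before adjustment, and none of the 10 probe sets passed after it.

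The second comparison set magnocellular against parvocellular layers. Of the 6 probe sets above the filter, 0 passed (limma adjusted p from 0.232 to 0.992), where 0.72% of all probe sets tested were called, and 1 had an unadjusted p under 0.05, where 14.6% of all did. Of the 4 below the filter, 0 passed (background 0.108%) and 1 had an unadjusted p under 0.05 (background 10.2%). The median log2 difference, magnocellular minus parvocellular, was -0.02 over the 6 and -0.07 over all probe sets tested. Magnocellular and parvocellular arrays overlapped in all 10 probe sets, where 0.941% of all non-control probe sets did not overlap.

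GABRB1 was the probe set with the unadjusted p under 0.05 above the filter. Its magnocellular values were 6201.6 and 4667.3 in layer 1 (deprived and non-deprived) and 8032.8 and 5896.2 in layer 2. Its parvocellular values ran from 6643.6 to 10147.1 with a median of 8953. Of the 4 magnocellular arrays 3 were below every parvocellular array, and the deprived layer 2, of lowest correlation with the other arrays, was not. The mean was 6199 ± 1391 (SD, n = 4) in magnocellular and 8510 ± 1296 (SD, n = 8) in parvocellular arrays, a 1.38-fold lower level with a log2 difference of -0.47 ± 0.17. The unadjusted p was 0.015 and the adjusted p was 0.232 (limma). The difference was -0.64 without the deprived layer 2 (adjusted p = 0.15, limma), -0.70 in non-deprived arrays alone and -0.38 after median centring. By layer, the order was 3, 6, 5, 4, 2 and 1, from a geometric mean of 9370 in layer 3 to 5380 in layer 1. Neighbours in that order overlapped in their values in every case. Layers 3 and 1 did not overlap, but they were picked as highest and lowest on these same values, so no conclusion is drawn from that.

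Values for RNA quality and for markers of other cell types in the 2 classes were as follows. The ACTB ratio was 46.4 ± 15.1 in magnocellular (SD, n = 4) and 25.7 ± 8.79 (n = 8) in parvocellular arrays, and with it as a covariate the GABRB1 estimate was -0.49 with an SE of 0.30. The summed level of 8 oligodendrocyte markers was 65790 to 101000 in magnocellular and 89260 to 153300 in parvocellular arrays, 5 of the 8 had negative estimates, and 2 of them passed. The summed level of the 8 astrocyte markers was 74300 to 120800 and 49790 to 120500, with 4 of the 7 above the filter higher in magnocellular arrays and 1 of them passing. That of 8 genes listed for interneurons and reticular cells was 72000 to 104800 and 55530 to 85690. Of the 6 above the filter, 4 were higher in magnocellular arrays and 0 passed. The 8 were GAD1, GAD2, PVALB, SST, NPY, RELN, CALB2 and ECEL1. Which cells the PVALB signal (12605.6 to 31477.3) came from, relay neurons included, was not tested. The sums of all 3 lists overlapped between the classes. The part of these values in the class differences of the subunits was not tested.

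GABRD was the probe set with the unadjusted p under 0.05 below the filter, and its 4 magnocellular values included 3 at or below the floor (33.9, 97.4 and 107.8). The other magnocellular array, the non-deprived layer 2, was at 542.3, and parvocellular arrays were at 57.1 to 795.4 with a median of 416. The log2 difference was -1.11 ± 0.46 (unadjusted p = 0.0382, adjusted p = 0.458, limma). Leaving out the non-deprived layer 1 gave -0.76. Adding the ACTB ratio as a covariate gave -0.38. Layers 5 and 6, the dorsal parvocellular layers, had no array at the floor (319.2 to 795.4), while layers 3 and 4 had 1 of 4 there (57.1 to 640). In the order of layers 5, 6, 3, 2, 4 and 1, neighbours again overlapped.

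The other subunits had class differences smaller than their intervals. GABRA4 was at 2162 to 2994.7 in the 4 magnocellular arrays and 1747.3 to 5380.2 in the 8 parvocellular ones (log2 difference -0.22 ± 0.24). Its highest layers were 4 and 6 (geometric means 4001 and 3862) and its lowest layer 5 (2011), a range of 1.99-fold within the parvocellular layers themselves, and neighbouring layers in that order overlapped. GABRB2 had a difference of 0.35 ± 0.35, and its magnocellular values apart from the deprived layer 2 (1137.5) lay between 566.7 and 610.3. The 2 GABRA2 probe sets had differences of -0.04 and 0.01, and GABRA3 had -0.19 ± 0.39. The 3 GABRA5 probe sets had 0.14 ± 0.21, 0.31 ± 0.37 and 0.51 ± 0.56. With the ACTB ratio as a covariate the estimates of GABRA3, GABRB2 and all 3 GABRA5 probe sets changed sign. The GABRA5 probe set above the filter was lowest in layer 6 (630.3 and 910.3), where both arrays were below every array of the other layers. That layer was picked as the lowest on these values, and the share of all probe sets with such a layer was not counted. The _s_at and _x_at probe sets of GABRA5 were lowest in layers 3 and 5.

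Deprivation was also compared between the classes. The difference in deprivation effect, magnocellular minus parvocellular, was 0.08 to 0.92 on the log2 scale over the 6 probe sets above the filter, of which 0 passed (background 0%) and 0 had an unadjusted p under 0.05 (background 8.73%). The background count of 0 calls became 208, of which 196 were lower, when the deprived layer 1 was left out, and no member was among them. The dimmer GABRA2 probe set had the largest, 0.92 ± 0.57 (adjusted p = 0.665, limma). Its deprived values were 515.4 and 918.1 in the magnocellular layers, against 456.1 and 353.4 non-deprived, and 422.4 to 613.1 in the parvocellular ones, against 366 to 777.7. The estimates of all 10 probe sets were positive, where 46.2% of all probe sets above the filter and 52.7% of all non-control ones were. Without the deprived layer 2, which is 1 of only 2 deprived magnocellular arrays, 7 of the 10 were positive, and 6 were when the deprived layer 5 was left out as well.

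Between hemispheres, 0 of the 6 probe sets above the filter passed (background 0.108%) and 0 had an unadjusted p under 0.05 (background 20.1%). The 12 calls behind that background became 56 with median centring and 851 without the non-deprived layer 6, and no member was among them. The estimates, ipsilateral minus contralateral, ran from -0.11 for GABRB1 to 0.39 for GABRB2, with a median of 0.13 against 0.07 over all probe sets tested. The hemispheres also differed in array median (586 ± 83.4 ipsilateral and 468 ± 39.7 contralateral, SD, n = 6 each) and in GAPDH ratio (6.14 ± 3.37 and 3.2 ± 0.72), and the signs depended on the scaling. With median centring, which took the median over all probe sets tested to -0.25, the estimate of GABRB1 was -0.43 (unadjusted p = 0.0189, adjusted p = 0.122, limma) and that of GABRB2 0.07. Both GABRA2 probe sets and GABRA4 then had negative estimates (-0.14, -0.25 and -0.27). With quantile normalization GABRB1 was at 0.02 and both GABRA2 probe sets were negative (-0.12 and -0.21). Among the probe sets below the filter the estimate of GABRD was -0.68 ± 0.44 (adjusted p = 0.437, limma), and with median centring -0.996 (unadjusted p = 0.0245, adjusted p = 0.161, limma). GABRD was at 97.4 to 462.2 (median 239.6) ipsilaterally and 33.9 to 795.4 (median 536.4) contralaterally.

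Among all pairs of the 10 member probe sets, the pair of highest correlation across arrays is described here, chosen for that value. GABRB2 and the _s_at probe set of GABRA5, which lay near the floor, had a Pearson r of 0.952 and a Spearman rho of 0.881 over the 12 arrays, 0.881 without the 2 arrays farthest from the median of GABRB2, and 0.928 after median centring. Both were highest in the non-deprived layer 4 (1361.2 and 533.2) and the deprived layer 2 (1137.5 and 413.7). Those are also arrays of high median intensity, 637.8 and 666.5. GABRB2 had an r of 0.626 with the log2 array median and of 0.663 with the log2 GAPDH ratio, and the GABRA5 probe set 0.62 and 0.729. In the naming of these arrays, the ending of an _s_at or _x_at probe set marks probes that can match more than 1 transcript. The GABRB2 probe set is an _s_at one as well, and what these 2 probe sets match in macaque was not tested. The next highest pair, GABRB2 and the dimmer GABRA2 probe set, both above the filter, had an r of 0.761, and 0.452 without its 2 farthest arrays. The lowest was GABRA3 with the GABRA5 _x_at probe set, at -0.714, and -0.462 without its 2 farthest. The 3 GABRA5 probe sets had r of 0.182 to 0.339 with each other.

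**Figure D3:**
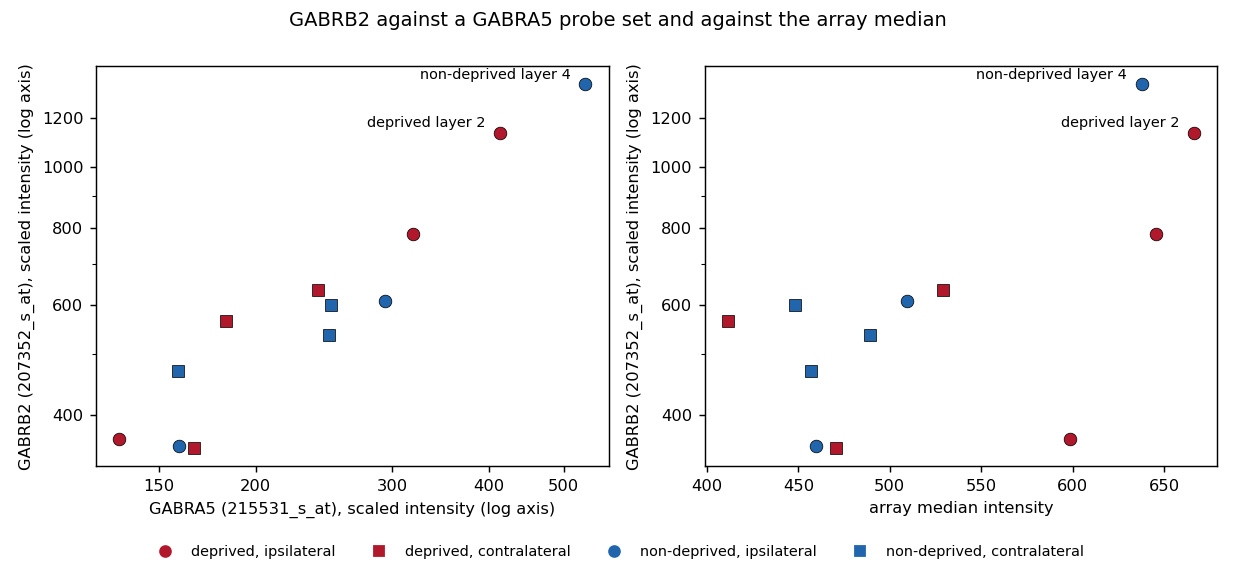
GABRB2 scaled intensity (log axis) against the GABRA5 _s_at probe set (left, log axis) and against the median intensity of the array (right, linear axis), 1 point per array, with colour for deprivation and shape for hemisphere. The GABRB2 probe set is an _s_at one as well. The non-deprived layer 4 and the deprived layer 2 are the highest for both probe sets and have array medians of 637.8 and 666.5.

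For each probe set above the filter, the 2 other genes with the highest Pearson r over the 12 arrays are given as a description, chosen from up to 9842 probe sets on the same arrays. For GABRB1 they were GRIA4, an AMPA receptor subunit (r = 0.917), and TRIM66 (0.915). For GABRB2 they were ETV1, a transcription factor (0.931), and ACOT13 (0.904), and for GABRA4 they were EIF1AX (0.908) and MAPK9 (0.883). For GABRA5 they were EIF1 (0.92) and RNPS1 (0.901). The 2 GABRA2 probe sets shared no such gene, with DST (0.924) and KLF5 (0.899) for the dimmer and KAT2B (0.917) and RIN2 (0.912) for the brighter.

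Other genes of GABA-A signalling were read from lists of known roles. Of 12 further subunit genes 6 had a probe set, and only GABRR2, a rho subunit, lay above the filter (371.1 to 1021.2), with log2 differences of 0.18 ± 0.24 for deprivation and -0.48 ± 0.25 for cell class (adjusted p = 0.401, limma, for the latter). GABRA6, the alpha6 subunit of cerebellar granule cells, was at or below the floor on 10 of 12 arrays. Among genes of receptor clustering and trafficking, 0 of 20 probe sets of 15 genes passed for deprivation or cell class, with unadjusted p under 0.05 for 5 and 2 (limma), where 12% and 14.6% of all probe sets tested had one. The smallest unadjusted p for deprivation were those of ZDHHC3, a palmitoyltransferase of the gamma subunit (-0.48 ± 0.15 and, on its other probe set, 0.03), and IQSEC3, a gephyrin-binding protein (0.90 ± 0.32). For cell class they were those of GABARAPL1 (0.72 ± 0.245, and 0.37 on its other probe set) and GABARAP (-0.44 ± 0.17), both related to receptor trafficking.

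Among genes that set the chloride gradient on which these channels act, 0 of 10 probe sets of 6 genes passed in either comparison, and 1 and 4 had an unadjusted p under 0.05 (limma; background 12% and 14.6%). SLC12A2, the chloride importer NKCC1, had a deprivation difference of 0.57 ± 0.25 (adjusted p = 0.386, limma), and SLC12A5, the neuronal chloride exporter KCC2, one of -0.28 ± 0.16 (adjusted p = 0.495, limma). For cell class SLC12A5 had 0.52 ± 0.16 (adjusted p = 0.162, limma) and SLC12A7 -0.64 ± 0.22 (adjusted p = 0.195, limma). Of genes of GABA synthesis and transport, 0 of 5 probe sets of 4 genes passed in either comparison and 1 had an unadjusted p under 0.05 in each (limma; the same background), with GAD2 at 0.42 ± 0.20 and GAD1 at 0.32 ± 0.18 for deprivation, and GAD1 at 0.61 ± 0.19 for cell class (adjusted p = 0.168, limma). Of the glycine receptor, the other inhibitory chloride channel, only GLRB lay above the filter, and its 2 probe sets had deprivation differences of -0.12 ± 0.19 and 0.01 ± 0.22.

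**Figure D4:**
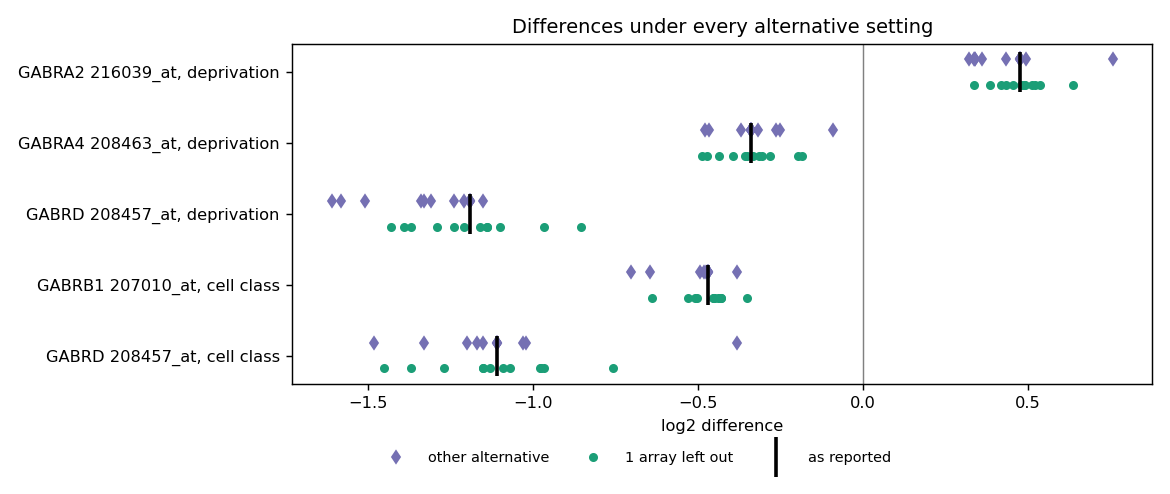
Log2 differences of 5 contrasts named in the text under each alternative: the vertical mark is the value as reported, diamonds are other settings and circles leave out 1 array. The GABRD deprivation values lie between -1.61 and -0.855 and the GABRB1 cell class values between -0.70 and -0.353, all on the same side of 0.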

How the data were processed

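Total RNA of 12 LGN samples was hybridised to a human Affymetrix expression array. The values used are the deposited ones, linear intensity values with no value below 0, and the software that made them was not given in the sources used here. Trimmed means (2%) differed between arrays only from 1500.45 to 1500.6, so the deposited intensity table was used without further scaling. A probe set was given a gene where it named 1 symbol (19065 of the non-control probe sets; 1043 named several and 2107 none here), and all 7 member symbols were found in the macaque gene tables.

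Intensities below the floor were set to 110.8 before log2. limma 3.58.1 (R 4.3.3; lmFit, eBayes with a trend, two-sided) fitted deprivation, cell class and hemisphere on all 12 arrays, with 8 residual degrees of freedom, or 7 with the interaction of deprivation and class. P-values were Benjamini-Hochberg adjusted over the 11105 probe sets above the filter, or over all 22215 for members below it, at a threshold of 0.05. The fitting code was tested on simulated data.

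The members and lists were chosen with earlier results of these data known. All members were named, with the 2 genes of highest r per member probe set above the filter. From the context lists, up to 2 genes of smallest p were named for deprivation and for cell class. For hemisphere and the interaction 0 probe sets of these lists passed, and their genes are not described here. Alternatives covered scaling, floor, filter, model terms, RNA-quality covariates, subsets of arrays and the mean over a gene's probe sets.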

Additional observations from a re-analysis of the deposited data

Results flagged for a closer look

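Of 60 groups of 4 to 8 arrays examined over the 10 probe sets, 4 held an array far from the rest on the log2 scale, where chance flags about 1 in 20 groups. The GABRA5 probe set above the filter was at 630.3 in the deprived layer 6, against 1074.8 to 1319 in the other deprived arrays. The same probe set was at 910.3 in the non-deprived layer 6, against 1199.1 to 1333.6 in the other ipsilateral arrays, so both layer 6 samples were the low ones. GABRB2 was at 1137.5 in the deprived layer 2, against 566.7 to 610.3 in the other magnocellular arrays. GABRD was at 542.3 in the non-deprived layer 2, against 33.9 to 107.8 in the other magnocellular arrays, all at or below the floor; since those 3 were set to the same floor value, any array above it would have stood apart, and this case does not count against the chance rate.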

How the results depend on the processing

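No member passed for deprivation, cell class, hemisphere or their interaction in any alternative that was run (0 in each, also below the filter). The same-layer deviations had correlations of -0.25 to -0.00159, and no array correlated best with its own number. Deviations from shared means lean towards negative correlation, so this check cannot exclude a pairing by layer. With the layer as a replicate block the member count stayed 0. The calls over all probe sets then went from 7 to 3 for deprivation and from 80 to 89 for cell class. Those whole-table counts depended on the setting. For deprivation they ran from 0 to 257, with 20 once layer 5 deprived was dropped and 43 once layer 6 non-deprived was. The 257 came from magnocellular layers alone, a fit of 4 arrays that leaves little to estimate the spread from. For cell class they ran from 2 in non-deprived arrays alone to 188 without the non-deprived layer 6, with 4 for the ACTB ratio. They ran from 0 to 851 for hemisphere and 0 to 208 for the interaction. The following log2 estimates, none of them called, for deprivation and cell class had the opposite sign to the reported one, and the cause was not tested. For deprivation, median centring gave -0.118 for the GABRA5 probe set above the filter and -0.0194 for GABRB1, and quantile normalization -0.0663 for that GABRA5 probe set, which was also -0.0547 with the GAPDH ratio and -0.0881 as the mean of its gene. With both high-GAPDH-ratio arrays left out (deprived layers 2 and 5) it was -0.0203, the dimmer GABRA2 probe set -0.0787 and the GABRA5 _x_at probe set 0.00139. The ACTB ratio gave 0.0667 for that _x_at probe set and 0.0728 for GABRB2. Parvocellular layers alone gave -0.143 for the dimmer GABRA2, -0.007 for GABRA5 and -0.0377 for GABRB1, and magnocellular layers alone 0.0197 and 0.0657 for the GABRA5 _s_at and _x_at probe sets and 0.407 for GABRB2. For cell class, the dimmer GABRA2 was 0.0624 with quantile normalization and 0.0418 with median centring, and the brighter -0.056 without those 2 arrays, -0.2 in non-deprived arrays alone and -0.0162 as the gene's mean. GABRA3 was 0.00854 without those 2 arrays and 0.325 with the ACTB ratio, which gave -0.13, -0.185 and -0.661 for GABRA5 and -0.208 for GABRB2. Leaving out each array in turn, deprivation estimates ran from -0.0174 to 0.285 (dimmer GABRA2), -0.0787 to 0.158, -0.336 to 0.074 and -0.397 to 0.224 (GABRA5), and -0.213 to 0.242 (GABRB2), and class estimates from -0.316 to 0.128 and -0.0934 to 0.148 (dimmer and brighter GABRA2). With 12 arrays and 4 member probe sets near the floor, signal over background limits those 4 most.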
